A study of Mus musculus with 6 samples.

Results

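Gasdermins are proteins that form pores in the plasma membrane once a protease has cut them, and inflammasomes are the sensor complexes that switch on one group of those proteases. The 10 genes described here are Gsdma, Gsdmc, Gsdmc2 and Gsdmd of the gasdermin family, the sensors Nlrp3, Aim2 and Naip5, the adaptor Pycard, and the proteases Casp1 and Casp4. They were selected by gene name from the 36610 names on the arrays, and all 10 are represented, by 16 of 56605 probes. Gsdma was chosen by its measured signal, higher in the KO-labelled than in the WT ureters, so its difference is given as a description with no test. The other 9 were chosen by function.

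The study measured gene expression in the ureter of 2-month-old C57BL/6N mice, 4 days after unilateral ureteral obstruction (UUO), in which the ureter on one side is blocked. All mice had the obstruction, so there is no unobstructed group. The groups are 3 mice labelled Col17a1-WT, all male, and 3 labelled Col17a1-KO, of which replicates 1 and 2 are male and replicate 3 is female. Each mouse gave total RNA for 1 array, a 1-colour Agilent design read in the green (Cy3) channel. The labels do not say how the Col17a1 allele was made, in which cells it acts, or whether the animals were littermates, and p-values measure only the spread between these samples.

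Canonical inflammasomes form when a sensor such as NLRP3, AIM2 or a NAIP protein with NLRC4 recruits caspase-1, usually through the adaptor ASC, the product of Pycard. Caspase-1 matures interleukin-1 beta and interleukin-18 and cuts gasdermin D, whose pores release them and lead to a lytic cell death called pyroptosis. Caspase-4 (caspase-11 in mouse) cuts gasdermin D when it binds bacterial lipopolysaccharide inside the cell. Gasdermins A and C are known mainly from epithelia such as skin and gut, while the sensors and caspase-1 are prominent in macrophages and other myeloid cells, although epithelia express several of them too.

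Col17a1, which encodes the hemidesmosome protein collagen XVII, checks the labels. Its brighter probe had log2 values of -2.33, -0.80 and -0.39 in WT and 0.50, 0.53 and 0.40 in KO-labelled ureters. The signal at this probe was thus not lower in the KO-labelled group, and the second probe ran the same way (means of -2.94 ± 0.35 for WT against -1.83 ± 0.09 for the KO-labelled group, SD, n = 3). The labels do not give the altered part of the gene, so these probes may lie outside it, and the group names are those of the labels with no support from Col17a1 signal. Signals at the 75th percentile, to which each array was scaled, lay between 143.7 and 164.9, and no spot was saturated. One array, WT replicate 2, stood apart in kidney genes: the summed level of 6 measured kidney tubule and podocyte markers was 2.91 times the 75th-percentile signal there, and between 0.508 and 0.609 on the other 5. Of 22260 genes tested with limma (Benjamini-Hochberg), 0 had an adjusted p under 0.05 and 2017 had an unadjusted p under 0.05. All values below are log2 signals relative to the array's 75th percentile, and differences are KO-labelled minus WT.

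The probes decide what can be told apart, because several of these genes have close copies. Gsdma was measured by probes on chromosome 11 in mm9, chr11:98537914-98537973 (probe 1) and chr11:98537811-98537870 (probe 2), plus strand. The first 30 bases of each are shown here because the Gsdma values rest on these adjacent, non-overlapping sequences:
Gsdma probe 1: ctaagcccatctcctgatgcttaaatcctg
Gsdma probe 2: ctccaggctgaggacaactgaaatgccagc
Neither shares a 20-base stretch with a probe of another gene on the array. The same is true of the Gsdmc, Gsdmc2 and Gsdmc4 probes below, which align closely. This check therefore cannot show whether the Gsdma probes also take up transcripts of close copies. The Gsdmc genes lie side by side on chromosome 15, and their probes partly align. Capitals mark the bases that differ between Gsdmc, measured at chr15:63608169-63608228, and Gsdmc2, at chr15:63656392-63656451 (mm9, minus strand):
Gsdmc: gtcctggatacatttgaGatattgcaccat
Gsdmc2: gtcctggatacatttgaTatattgcaccat
Of the 30 aligned bases 29 are identical. The other end of the Gsdmc2 probe aligns with that of Gsdmc4, at chr15:63723278-63723337, with 27 of 29 bases identical and the differences again in capitals:
Gsdmc2: tgcatgttttaggcCAgtgggaataaaga
Gsdmc4: tgcatgttttaggcTGgtgggaataaaga
The Gsdmc3 probe lists accessions of both Gsdmc2 and Gsdmc3. Signals of the Gsdmc genes are therefore best read as those of the cluster, since a probe of one may also take up transcripts of another.

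Gsdma had log2 values at probe 1 of -3.06, -3.31 and -3.25 in WT replicates 1 to 3, and of -1.50, -1.58 and -2.07 in KO-labelled replicates 1 to 3. Every KO-labelled ureter lay above every WT ureter, and the lowest of the KO-labelled group was replicate 3, the female. The group means were -3.21 ± 0.13 and -1.72 ± 0.31 (SD, n = 3), a difference of 1.49 or 2.81-fold. At probe 2 the values were -4.37, -4.65 and -3.94 in WT and -2.28, -2.54 and -2.95 in KO-labelled ureters, a difference of 1.73 or 3.31-fold, again without overlap. Over all genes tested, 7.28% separated the groups in this direction; Gsdma was picked for doing so. Both were dim, though each array had them well above background: the unscaled signals of probe 1 were 14.5 to 18.9 in WT and 34.6 to 55.9 in KO-labelled ureters. Those of probe 2 were dimmer, 5.73 to 10.3 in WT and 18.8 to 32.5 in KO-labelled ureters. The scanner software gave an error of 10.1% to 11.8% of the signal at probe 1 and 10.4% to 19.1% at probe 2. With normexp background correction, which adds an offset of 50 and so compresses dim probes, the difference was 0.54 at probe 1 and 0.38 at probe 2.

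**Figure D1:**
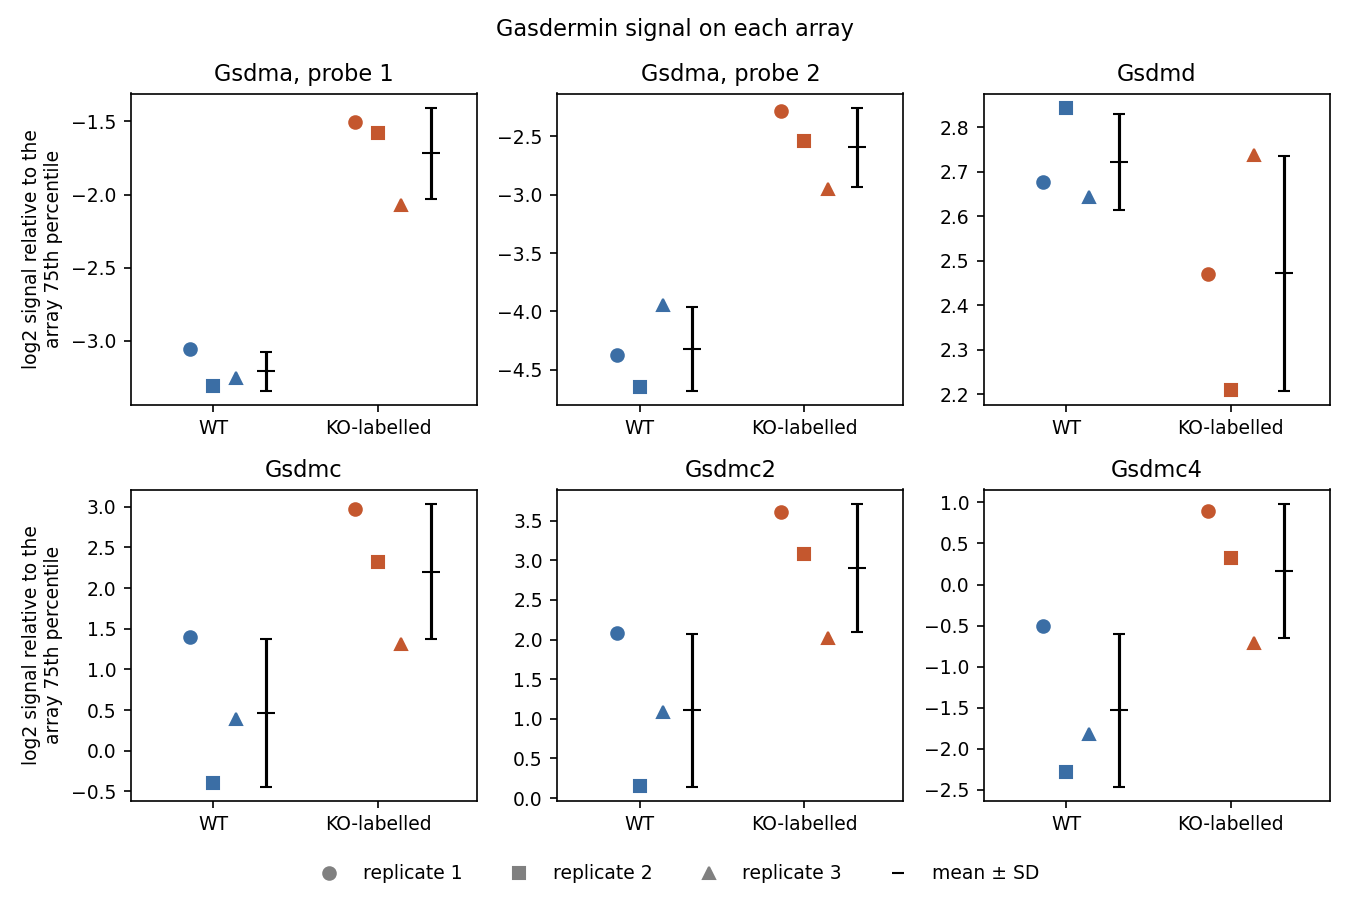
Log2 signal relative to the array's 75th percentile (vertical axis, scaled separately in each panel) for both Gsdma probes, Gsdmd, Gsdmc, Gsdmc2 and Gsdmc4 in 3 WT (blue) and 3 KO-labelled (orange) ureters; marker shapes give the replicate and the black bar the mean with SD. The groups do not overlap at either Gsdma probe, while for the Gsdmc genes WT replicate 1 lies above KO-labelled replicate 3.

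The close relatives of Gsdma were not measurable. The Gsdma2 probes were well above background on 1 of 6 arrays at most, and the Gsdma3 probe on none, so no level or fold is given for them. Among 13570 other genes with a reference symbol and signal above background on all arrays, the 3 whose profile over the 6 arrays lay nearest to that of Gsdma were Hsd17b2, an enzyme of steroid inactivation, Shisa3 and Meltf, an iron-binding membrane protein. Their root mean square differences from Gsdma, after centring each gene on its mean, were 0.157, 0.164 and 0.184 in log2, against a median of 0.792 over the genes compared.

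Gsdmc encodes the founding member of the expanded mouse gasdermin C group. It had values of 1.40, -0.40 and 0.39 in WT ureters and of 2.97, 2.32 and 1.32 in KO-labelled ureters. The groups overlapped, because WT replicate 1 lay just above KO-labelled replicate 3. Their means differed by 1.74 (standard error 0.57) with a 95% interval of 0.35 to 3.13, and this did not pass the threshold (limma, adjusted p = 0.483). A second probe annotated to Gsdmc, upstream on the same strand, did not stand well above background anywhere.

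Gsdmc2 showed the same arrangement. Its values were 2.08, 0.15 and 1.09 in WT and 3.61, 3.08 and 2.03 in KO-labelled ureters. Here too WT replicate 1 lay above KO-labelled replicate 3, and the means of 1.11 ± 0.96 and 2.91 ± 0.81 (SD, n = 3) differed by 1.80 with a standard error of 0.59. The 95% interval was 0.38 to 3.22 and the adjusted p from limma was 0.480. The neighbouring genes Gsdmc3 and Gsdmc4 differed by 1.64 ± 0.56 and 1.70 ± 0.58 (difference and standard error; limma, adjusted p = 0.490 and 0.488).

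Across the 115.2 kb that hold these 4 probes, the genes had nearly the same profile. Their KO-labelled to WT ratios were 3.11 to 3.48, and the order of the 6 arrays was identical for all 4: KO-labelled 1, KO-labelled 2, WT 1, KO-labelled 3, WT 3, WT 2. After centring each gene on its mean, the 4 differed by at most 0.27 on any array, while each spanned 3.18 to 3.46 between its lowest and highest array. Animals of 1 group also differed from each other, with within-group SDs of 0.78 to 0.96.

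Markers of superficial urothelium, the epithelium that lines the ureter, stood in the same order of arrays as the Gsdmc genes. All 12 of these markers, which include uroplakins and keratins, were well above background on all arrays, and the mean of the list was 0.07, -0.95 and -0.43 in WT and 0.84, 0.51 and -0.03 in KO-labelled ureters. The summed marker level was 222.2 to 316.1 times the 75th-percentile signal in WT and 372.3 to 561.9 times in KO-labelled ureters, and 12 of 12 markers were higher. The list differed between groups by 0.87 and the Gsdmc genes by 1.64 to 1.80. Subtracting the list value on each array left differences of 0.87 for Gsdmc, 0.93 for Gsdmc2, 0.76 for Gsdmc3, 0.83 for Gsdmc4 and 0.62 for Gsdma. On that scale the groups did not overlap for Gsdma, Gsdmc and Gsdmc2, and did for Gsdmc3 and Gsdmc4, but the gaps were narrow: for Gsdma the highest WT value was 0.11 and the lowest KO-labelled value 0.12. Squamous epithelium markers, of which 10 of 13 were measured, were higher for 8 and differed by a mean of 0.48. Relative to that list, Gsdmc and Gsdmc2 differed by 1.26 and 1.32 with overlapping groups, WT replicate 1 lying above KO-labelled replicates 2 and 3, and Gsdma by 1.01 without overlap. Gsdma was picked for its difference on these arrays, so its values relative to the superficial and squamous lists are no independent sign. The share of all genes without overlap was not computed on either scale. Basal urothelium markers, 6 of 8 higher, stood in another order, with WT replicate 1 lowest. Their list mean was -0.50, -0.23 and 0.01 in WT and 0.21, 0.33 and 0.18 in KO-labelled ureters. The order of the superficial list was also not particular to urothelium. The mean of 8 smooth muscle markers, 8 of 8 higher, was 0.15, -0.81 and -0.20 in WT and 0.64, 0.41 and -0.20 in KO-labelled ureters, nearly the same order. The superficial list also shares a uroplakin gene with the mesothelium list, of which 4 of 4 measured markers were higher (median 0.75). The part that epithelial, muscle or mesothelial content plays in these differences was not tested, and in bulk tissue more cells of a type and more RNA per cell cannot be told apart.

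**Figure D2:**
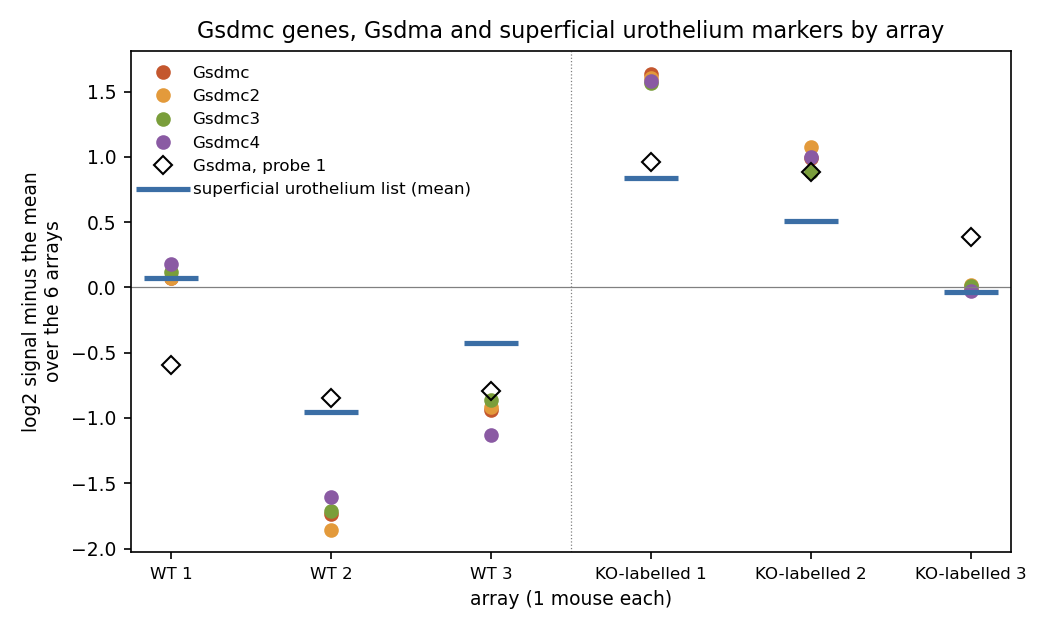
Log2 signal minus the gene's mean over the 6 arrays (vertical axis) for 4 Gsdmc genes (filled circles) and Gsdma probe 1 (open diamonds), with the mean of 12 superficial urothelium markers (blue bars), by array. The Gsdmc genes follow the order of these superficial markers, lowest in WT replicate 2 and highest in KO-labelled replicate 1. Gsdma, by contrast, is lower in WT replicate 1 than in KO-labelled replicate 3.

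Gsdmd, the substrate through which inflammasomes open the membrane, had another order of arrays. Its brighter probe, at chr15:75697536-75697595 (mm9, plus strand), had values of 2.68, 2.84 and 2.64 in WT and 2.47, 2.21 and 2.74 in KO-labelled ureters. KO-labelled replicate 3 lay within the WT range and the other KO-labelled ureters below it. The means differed by -0.25 ± 0.16 (95% interval -0.63 to 0.13; limma, adjusted p = 0.678), and the second probe gave -0.16. With each array left out in turn the difference lay between -0.38 without KO-labelled replicate 3 and -0.12 without KO-labelled replicate 2. Gsdme, another gasdermin, differed by -0.16 ± 0.31 at its brighter probe and by 0.57 ± 0.31 at a second probe, so its probes disagreed in sign.

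Among the sensors, Nlrp3, which responds to potassium loss and membrane damage, was dim and nearly equal in both groups. Its values were -3.69, -3.28 and -3.93 in WT and -3.82, -3.88 and -3.23 in KO-labelled ureters, with the highest value on KO-labelled replicate 3 and the next on WT replicate 2. The difference of -0.01 had a 95% interval of -0.60 to 0.58 (limma, adjusted p = 0.995), and its sign changed in 6 of 17 other settings. Unscaled signals were only 10.4 to 15.5 and the scanner error up to 14.1%, so a change within that interval was not detectable here.

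Aim2, a sensor of cytosolic DNA, had values of -1.41, -1.04 and -1.40 in WT and -1.79, -1.64 and -1.15 in KO-labelled ureters at its brighter probe. The groups overlapped through KO-labelled replicate 3, and the difference was -0.24 ± 0.20 (limma, adjusted p = 0.752). It lay between -0.43 without KO-labelled replicate 3 and -0.11 without KO-labelled replicate 1, and normexp correction gave -0.12. The dimmer Aim2 probe, at unscaled signals of 5.76 to 11.6, had -3.90, -3.64 and -3.83 in WT and -4.08, -4.84 and -4.34 in KO-labelled ureters. There the groups did not overlap, with a difference of -0.63 ± 0.21 (limma on single probes, adjusted p = 0.483), and normexp correction gave -0.11.

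Naip5, a sensor of bacterial flagellin that works with Nlrc4, cannot be read with confidence from this array. Its bright probe, at chr13:100981843-100981902 (mm9, minus strand), holds the sequence below, in which capitals mark a 20-base stretch that also occurs, on either strand, in 18 of 32851 promoter windows of RefSeq genes (GRCm38.p6):
Naip5: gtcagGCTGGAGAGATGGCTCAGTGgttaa
Only 0.325% of all probes on the array hold a stretch shared with that many promoters, and none of the other member probes holds one found in any. The values at this probe were 5.80, 5.86 and 5.73 in WT and 5.64, 5.61 and 5.75 in KO-labelled ureters, a difference of -0.13 ± 0.10 (limma, adjusted p = 0.740). The second Naip5 probe lists accessions of Naip1, Naip5 and Naip6, and gave values of -3.82, -3.23 and -3.59 in WT and -4.29, -4.12 and -3.50 in KO-labelled ureters. The groups overlapped at both probes, and the difference at the second was -0.43 ± 0.25 (limma on single probes, adjusted p = 0.632).

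Nlrc4, the partner through which NAIP proteins engage caspase-1, is not one of the 10 genes but was the only measured sensor whose groups did not overlap at its brightest probe. Its values were -1.78, -1.51 and -1.66 in WT and -2.62, -2.39 and -2.06 in KO-labelled ureters, with no overlap. The difference was -0.70 ± 0.17, or 1.63-fold lower, and did not pass the threshold (limma, adjusted p = 0.435). With each array left out in turn Nlrc4 lay between -0.85 and -0.57, but normexp correction, which compresses dim probes, gave -0.30. Naip2, which detects the inner rod protein of bacterial secretion systems, differed by -0.52 ± 0.32, and Naip6 by -0.29 ± 0.15. The Naip2 value lay between -0.84 without KO-labelled replicate 3 and -0.33 without KO-labelled replicate 1.

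Pycard, whose product ASC bridges sensors and caspase-1, was at 3.31, 3.76 and 3.58 in WT and 3.54, 3.48 and 3.77 in KO-labelled ureters. The groups overlapped fully and the difference was 0.04 with a 95% interval of -0.33 to 0.42 (limma, adjusted p = 0.953). A second probe that carries the Pycard name lies on the opposite strand, at chr7:135140025-135140084 in mm9, so it is not read as Pycard here. Its values ran from -3.58 in WT replicate 1 to -2.05 in WT replicate 2, with a difference of 0.16 ± 0.44.

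Casp1, the protease that matures interleukin-1 beta, had values of 1.72, 1.79 and 1.65 in WT and 1.25, 0.89 and 1.68 in KO-labelled ureters. KO-labelled replicates 1 and 2 lay below all WT ureters, while replicate 3 lay within them. The difference was -0.45 ± 0.21 with a 95% interval of -0.94 to 0.05 (limma, adjusted p = 0.578), or 1.36-fold lower. Casp4, its neighbour on chromosome 9, did not follow it: values were 2.30, 2.89 and 2.86 in WT and 2.88, 2.82 and 2.82 in KO-labelled ureters. Only WT replicate 1 stood apart there, and the difference was 0.15 ± 0.18 (95% interval -0.28 to 0.58; limma, adjusted p = 0.824).

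**Figure D3:**
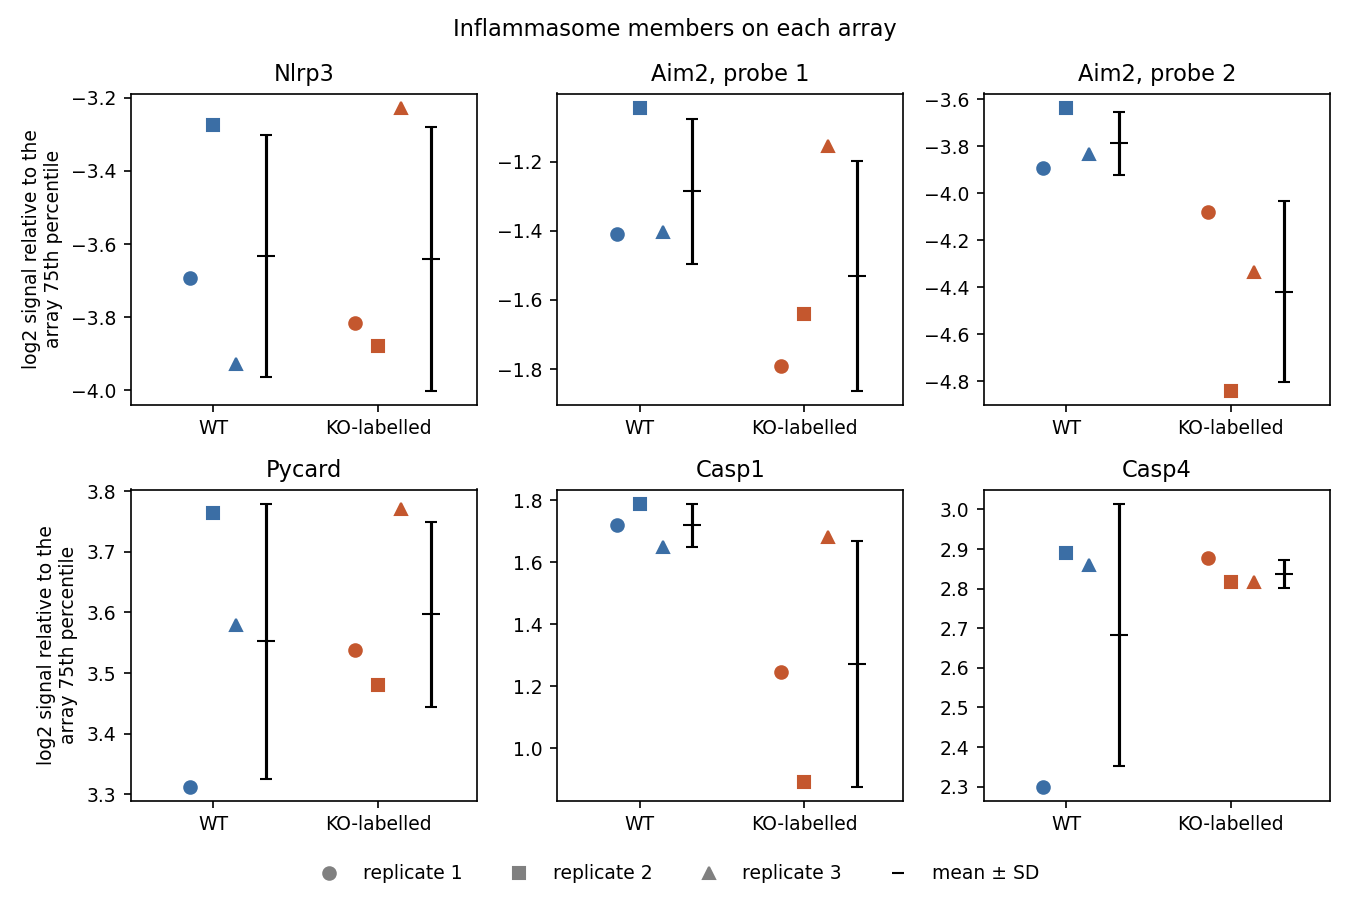
Log2 signal relative to the array's 75th percentile (vertical axis, scaled separately in each panel) for Nlrp3, both Aim2 probes, Pycard, Casp1 and Casp4 in 3 WT (blue) and 3 KO-labelled (orange) ureters; marker shapes give the replicate and the black bar the mean with SD. For Casp1 and Aim2 probe 1, KO-labelled replicate 3 lies among the WT ureters and replicates 1 and 2 below them.

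Macrophage and monocyte markers were, as a mean, lowest on KO-labelled replicates 1 and 2, as was Casp1. On KO-labelled replicate 3 their mean lay below every WT ureter, whereas Casp1 lay within the WT range. Of 12 such markers, all well above background on every array and none at 0, 11 were lower, and the list mean was 0.12, 0.42 and 0.25 in WT and -0.33, -0.54 and 0.07 in KO-labelled ureters. Their summed level was 755.0 to 832.8 times the 75th-percentile signal in WT and 563.2 to 703.2 times in KO-labelled ureters. Relative to that list, array by array, Casp1 differed by 0.08 and Nlrc4 by -0.18, both with overlapping groups. Gsdmd and Aim2 each differed by 0.28 without overlap. The Aim2 gap was very narrow, with a highest WT value of -0.060 and a lowest KO-labelled value of -0.058. Only the brighter Aim2 probe was compared in this way, and the share of all genes without overlap was not computed on this scale. Whether macrophage content bears on these differences was not tested beyond these values.

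Of the 9 genes tested, 4 were higher and 5 lower in KO-labelled ureters, with a median difference of -0.01, and 0 passed the adjusted threshold, as did 0.0% of all 22260 genes. At an unadjusted p under 0.05 there were 2, Gsdmc and Gsdmc2, which share sequence and array order, against 9.06% of all genes in either direction and 4.35% in theirs. Groups failed to overlap for 0 of the 9 at the brightest probe, against 15.4% of all genes. All 10 genes passed the filter on dim probes, each with a probe well above background on all 6 arrays.

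The rest of the pathway is described by lists of genes with known roles, of which 79 of 85 passed the filter on dim probes. Gsdma, which is not tested, is 1 of these, and of the others 0 passed the adjusted threshold. In the inflammasome sensor list all 14 genes past the filter on dim probes were lower in KO-labelled ureters, with a median of -0.30, whereas 50.2% of all genes tested were lower and their median was -0.0009. Of these 14 sensors, 1 (Nlrc4) had an unadjusted p under 0.05 and groups that did not overlap, against 8.13% of all genes without overlap in that direction. Nlrp3 turned higher under quantile normalisation, median centring and array weights, and also without WT replicate 2 and without KO-labelled replicate 1. Naip1 turned higher when its probes were averaged. Each of these settings left 13 of 14 lower. Without KO-labelled replicate 3 the median of the list was -0.51, and without KO-labelled replicate 2 it was -0.21 with 12 of 15 lower. Beside these sensors, 11 of 12 macrophage and monocyte markers and 7 of 7 measured dendritic cell markers were also lower, the latter with a median of -1.33 and summed levels of 193.3 to 220.2 in WT against 54.3 to 115.3 in KO-labelled ureters; their part in the sensor values was not tested. Nlrp6 and Nlrp12 did not pass the filter; without a filter they were the sensors not lower, leaving 14 of 16. The 14 also include Naip5 by its bright probe with the shared stretch and Nlrp3 at -0.01. The list was drawn broadly: it holds Nod1 at -0.05 and Nod2 at -0.54, and not all its genes are established inflammasome sensors. In the gasdermin list, 5 of 7 measured genes were higher, namely Gsdma and the 4 Gsdmc genes; Gsdma was picked for this difference and the Gsdmc probes share sequence, so the median of 1.64 is no independent sign.

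Caspases as a list were higher for 6 and lower for 4 of 10, with a median of 0.02. Casp8, which can cut gasdermins C and D, differed by 0.04 ± 0.16 and Casp12 by 0.26 ± 0.14. The adaptors and licensing factors had 5 higher and 6 lower of 11, with a median of -0.001. Within it Nek7, the kinase that licenses NLRP3, differed by 0.11 ± 0.14, the pannexin channel gene Panx1 by 0.03 ± 0.11, and the guanylate-binding protein genes Gbp2 and Gbp5 by -0.001 ± 0.30 and 0.26 ± 0.23, with -0.19 at a second Gbp5 probe. P2rx7, the ATP-gated channel that can trigger NLRP3, had values of 1.70, 1.64 and 1.56 in WT and 0.82, 1.15 and 1.55 in KO-labelled ureters at its brightest probe, a difference of -0.46 ± 0.19 (limma, adjusted p = 0.554). The groups separated there only narrowly, and overlapped at its other probes, which gave -0.51 each. Irf8 was the only gene of the adaptor and licensing list with an unadjusted p under 0.05 (limma), a level that 9.06% of all genes reached. It differed by -0.64 ± 0.21 without overlap (limma, adjusted p = 0.477). Card9 had the largest difference of that list, -0.91 ± 0.44, with overlapping groups (limma, adjusted p = 0.590). Irf8 and Card9 were picked after their values were seen.

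Interleukin-1 beta and interleukin-18, the cytokines that inflammasomes release, differed in their spread. Il1b had values of 0.94, 3.43 and 2.64 in WT and 0.62, 1.02 and 3.25 in KO-labelled ureters, so that WT replicate 2 and KO-labelled replicate 3 were the highest of their groups and WT replicate 1 and KO-labelled replicate 1 the lowest. The difference of -0.70 had a 95% interval of -2.84 to 1.43 (limma, adjusted p = 0.838), too wide to place its direction. Il18, known from epithelia and macrophages, was steadier: 1.25, 1.11 and 1.12 in WT and 0.90, 0.66 and 1.06 in KO-labelled ureters. These groups did not overlap, although the difference was only -0.28 ± 0.13 and did not pass (limma, adjusted p = 0.590).

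Among the receptors of these cytokines, Il18r1, a chain of the interleukin-18 receptor, ran the other way from Il18: it differed by 0.30 ± 0.14 with groups that did not overlap and did not pass (limma, adjusted p = 0.573). Il18rap, the other chain, differed by 0.88 ± 0.54 with overlapping groups, and Il1r1 by 0.29 ± 0.25. These 3 receptor genes were picked after their values were seen. Il1rn, the receptor antagonist, differed by -0.18 ± 0.52, Il18bp, the interleukin-18 decoy, by -0.15 ± 0.17, Il1a by -0.35 ± 0.53, and the alarmin gene Il33 by 0.39 ± 0.48. Ninj1, whose product ruptures the membrane after pyroptosis, differed by -0.36 ± 0.20, with KO-labelled replicate 3 (5.49) above WT replicates 1 (5.31) and 3 (5.42). A further list holds proteases of other cells that can cut gasdermins of mouse or human, not all of them known to do so in mouse. Of these, Elane of neutrophils differed by -0.11 ± 0.13, Gzma of cytotoxic lymphocytes by -0.92 ± 0.44 and Gzmb by 0.06 ± 0.31.

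**Figure D4:**
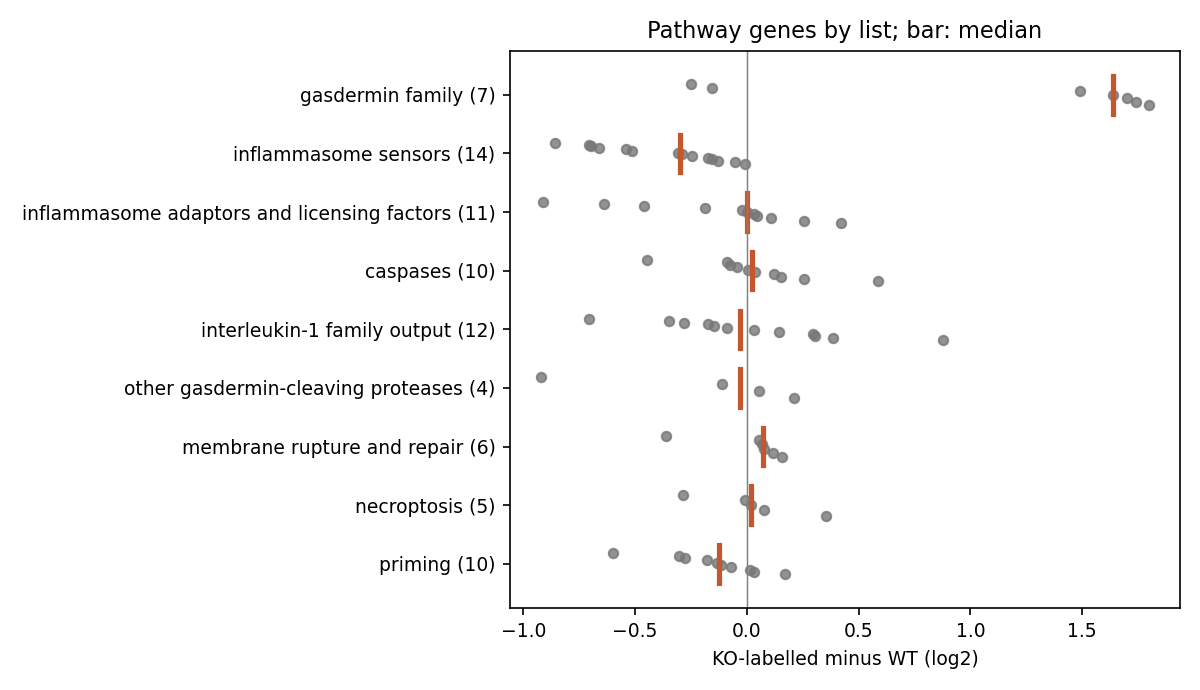
KO-labelled minus WT difference in log2 signal (horizontal axis) for each gene past the filter on dim probes in 9 pathway lists (points, Gsdma included although it was not tested; number of genes in brackets), with the list median as an orange bar. The 14 genes of the sensor list all lie below 0, and 5 gasdermins lie between 1.49 and 1.80. The medians of the other lists lie between -0.13 and 0.07.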

How the data were processed

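Per the file headers, the deposited intensity values are processed Cy3 signals of Agilent Feature Extraction 12.0.3.1 after background subtraction and spatial detrending within an array; arrays were not scaled to each other. Probe positions are in mm9. For scaling across arrays, the authors' method was not given in the sources used here. All 6 arrays share 1 slide and 1 scan time. Outlier spots were left out (none fell on the 16 member probes), spots of a probe averaged, and log2 signals set relative to the 75th percentile of an array's probes, controls excluded. A probe was kept if all arrays of either group had it well above background, and a gene took its brightest kept probe (22260 genes). The groups were compared in limma 3.58.1 (lmFit, eBayes; R 4.3.3), adjusting p over all genes by Benjamini-Hochberg at a threshold of 0.05; other probes took their values from a fit of all kept probes. The procedure was tested on simulated data. Members, lists and the list of named partners were chosen with earlier results of these data known. By rule, the named genes are the 10 members, Col17a1, partners fixed by role, and the 3 genes nearest to Gsdma. Those nearest to Nlrp3 and Gsdmd are given at the close. Outside this rule, Il18r1, Il18rap, Il1r1, Mlkl, Ripk3, Zbp1, Irf8 and Card9 were picked after their values were seen. Nlrp12, Nod1 and Nod2 are named only as genes of the sensor list. Marker lists also covered dendritic cells, neutrophils, T and NK cells, smooth muscle, fibroblasts, endothelium, mesothelium and basal urothelium, with median differences of -1.33, 0.11, -0.08, 0.66, -0.04, 0.10, 0.75 and 0.58. The neutrophil list was split: of 11 markers 6 were higher and 5 lower, from -0.26 to 3.17. Of these, 4 were higher at an unadjusted limma p under 0.05, against 4.35% of all genes, and 0 passed the adjusted threshold. Alternatives covered background, scaling, filter, probe choice, variance model, weights, sex, replicate block and left-out arrays. The number of arrays limits the precision, and an exact permutation test of 3 against 3 cannot go below p = 0.1. Replicate numbers were not taken as pairs in the main fit. Deviations of same-numbered arrays correlated at 0.53, -0.15 and -0.03. Those of WT replicate 2 with KO-labelled replicate 3 correlated at 0.46, and of WT replicate 3 with KO-labelled replicate 2 at 0.32. The remaining combinations were negative, down to -0.45. With 3 arrays in a group, these values cannot decide whether samples were paired.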

Additional observations from a re-analysis of the deposited data

How the results depend on the processing

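Alternatives without WT replicate 2 and KO-labelled replicate 3 together, and the fit of single probes, were chosen after the data were seen. Past the adjusted threshold of limma, 0 genes became 498 with array weights, of which 2 were among the 9 tested members (Gsdmc and Gsdmc2) and 5 in the pathway lists (with Gsdmc3, Gsdmc4 and Nlrc4). The weights did not converge, from 0.229 for WT replicate 1 to 6.93 for WT replicate 3, and the adjusted p of Gsdmc was 0.0484 there, within 0.0484 to 0.984 over its alternatives. With a replicate block the count of genes was 1, and leaving out each array gave 0 to 1 (the 1 without KO-labelled replicate 2), with 0 members and 0 pathway genes in both; the cause was not tested. The Gsdma difference, which chose that gene, was 0.54 with normexp and at most 1.67. Gsdmc lay between 1.31 without WT replicate 2, the array that stood apart in kidney genes, and 2.21 without WT replicate 1. Gsdmc2, Gsdmc3 and Gsdmc4 were at 1.32, 1.19 and 1.33 without WT replicate 2, and at 2.28, 2.11 and 2.22 without WT replicate 1. What sets WT replicate 2 apart was not tested. Casp1 lay between -0.65 and -0.25. Nlrp3 turned to 0.015 with quantile normalisation, 0.019 with median centring and 0.12 with array weights, and to between -0.22 and 0.17 with each array left out. Pycard turned to -0.029 with array weights and -0.042 with a sex covariate, which removes KO-labelled replicate 3, and lay between -0.075 and 0.15 with each array left out, where Casp4 lay between -0.037 and 0.26. Dim probes limit Gsdma, Nlrp3, Nlrc4 and the second Aim2 and Naip5 probes.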

Other observations

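Nlrp1b, a sensor cut by bacterial proteases, was lower at all 3 of its probes. The brightest had values of -1.32, -0.85 and -1.23 in WT and -1.94, -2.51 and -1.03 in KO-labelled ureters, a difference of -0.70 ± 0.37 with overlapping groups (limma, adjusted p = 0.623). The others differed by -0.94 ± 0.37 and -1.57 ± 0.52 (limma on single probes, adjusted p = 0.525 and 0.483). At the first of these KO-labelled replicate 3 and WT replicate 1 were level at -3.47, and at the last, where the groups did not overlap, the probe was well above background on 3 WT arrays and 1 KO-labelled array. On all 3 probes KO-labelled replicate 3 was the highest of its group.

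Of the necroptosis genes, a lytic death route separate from gasdermins, Mlkl, the pore-forming effector, differed by 0.35 with an unadjusted p of 0.0363, a level that 9.06% of all genes reached, and did not pass (limma, adjusted p = 0.516). Ripk3 differed by 0.08 and Zbp1 by -0.29; these 3 were picked after their values were seen. The genes nearest to Gsdmd over the 6 arrays were Tnrc18, Adck5 and Dse, with root mean square differences of 0.0187, 0.024 and 0.0278 in log2, and those nearest to Nlrp3 were Clec16a, Slc1a7 and Pax5, with 0.0803, 0.084 and 0.0887.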
